A study of Danio rerio with 36 samples.

Results

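In larval zebrafish, 28 genes, out of 25856 measured with BPA, were sharply lower after exposure to 48.3 µM bisphenol A (BPA) while their mean change after 2.92 µM tetrabromobisphenol A (TBBPA) stayed small. They were selected on measured values. On the scale log2(value + 1), a gene had to be lower by at least log2(2.5) at 48.3 µM BPA than in the carrier control (CC) in each of the 3 same-numbered pairs of libraries, to have a CC mean of at least 50 normalized reads, and to have a mean change between -0.4 and 0.4 at 2.92 µM TBBPA. Of the 11124 genes with that CC mean, 45 met the condition on BPA, a share of 0.405%. Of these 45, 15 changed by -0.4 or less at 2.92 µM TBBPA, 1 changed by 0.4 or more, 29 fell within the window, and 1 of the 29 was left out of the selection by its identifier. Since both comparisons chose the genes, the changes at 48.3 µM BPA and at 2.92 µM TBBPA are given as a description of the genes, with no test.

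The genes do not form 1 pathway, but several share a messenger. In the cone and rod photoreceptors of the retina, light activates a phosphodiesterase that breaks down cyclic GMP (cGMP), and calcium-sensing proteins then switch guanylate cyclase on to restore it. Outside the eye, cGMP acts mainly through cGMP-dependent protein kinases and is removed by other phosphodiesterases, for example in smooth muscle. Other genes in the set belong to glycine transmission, the inhibitory signalling that dominates in the hindbrain and spinal cord, and to skin, muscle and liver. BPA is a monomer used to make polycarbonate plastics, and TBBPA is the same bisphenol skeleton carrying bromine on both rings, used as a flame retardant.

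RNA was sequenced from pools of 20 whole larvae of the AB/Tub genotype, exposed from 72 to 120 h post fertilization (hpf). The BPA libraries comprised 0.00483, 0.0483, 0.483, 4.83 and 48.3 µM BPA and their CC, and the TBBPA libraries comprised 0.000292, 0.00292, 0.0292, 0.292 and 2.92 µM TBBPA and their own CC, with 3 libraries in each of the 12 groups. All groups share the genotype and the age. By the study's methods the CC was 0.5% DMSO, and the carrier level in the exposed wells is not stated. The highest concentration of each chemical was set by its effect and not by a shared molarity, so the changes are set side by side at 48.3 and 2.92 µM and no test was made between them.

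Each value is the number of reads of a gene divided by the size factor of its library (a normalized read count), and the chemicals were normalized in separate tables. Reads per library ran from 6056692 to 16520859 (median 7235877.5) in the BPA libraries and from 7865327 to 11478099 (median 9029284) in the TBBPA libraries. All 28 genes were measured in both tables, with at least 2 reads in each 48.3 µM BPA library. Replicate 3 of 4.83 µM BPA stood apart from the other libraries of that group. The comparison at 4.83 µM BPA and some counts at 48.3 µM BPA are given with and without it. Other limma values at 48.3 µM BPA are given only from the fit that includes it. In a chi-squared comparison of the reads of 2 libraries, 4.83 µM replicate 3 gave 31.9 and 27.3 per gene against replicates 1 and 2, which gave 7.45 between them. Replicate 2 of the BPA CC also differed, at 22.3 and 26.8 against replicates 1 and 3, which gave 9.17 between them. Among the 48.3 µM BPA libraries, replicate 1 gave 20.7 and 15.7 against replicates 2 and 3, which gave 7.27 between them. In this measure a given difference weighs more with more reads. BPA CC replicate 3 and 48.3 µM replicate 1 had the most in the BPA libraries, at 16520859 and 12636410. Means are given ± SD over the 3 libraries of a group. In whole larvae, fewer cells of a type and less RNA per cell cannot be told apart.

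Across the 28 genes, the mean at 48.3 µM BPA was lower than the mean in CC by 2.61-fold (SLC6A5) to 8.76-fold (ahsg1), with a median of 3.82-fold. For 24 of the 28, the 3 libraries at 48.3 µM BPA also lay below all 12 libraries of the 4 lower BPA concentrations, which were not used to select the genes. Among the 11124 genes with a CC mean of at least 50, 9.73% had that pattern in this direction. The 48.3 µM libraries are the ones that chose the genes, so the 24 are not a separate result. The 4 exceptions were rp1l1b, arhgef9b, SLC6A5 and CABZ01051602.1, and 3 of these overlapped only through 4.83 µM replicate 3.

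**Figure D1:**
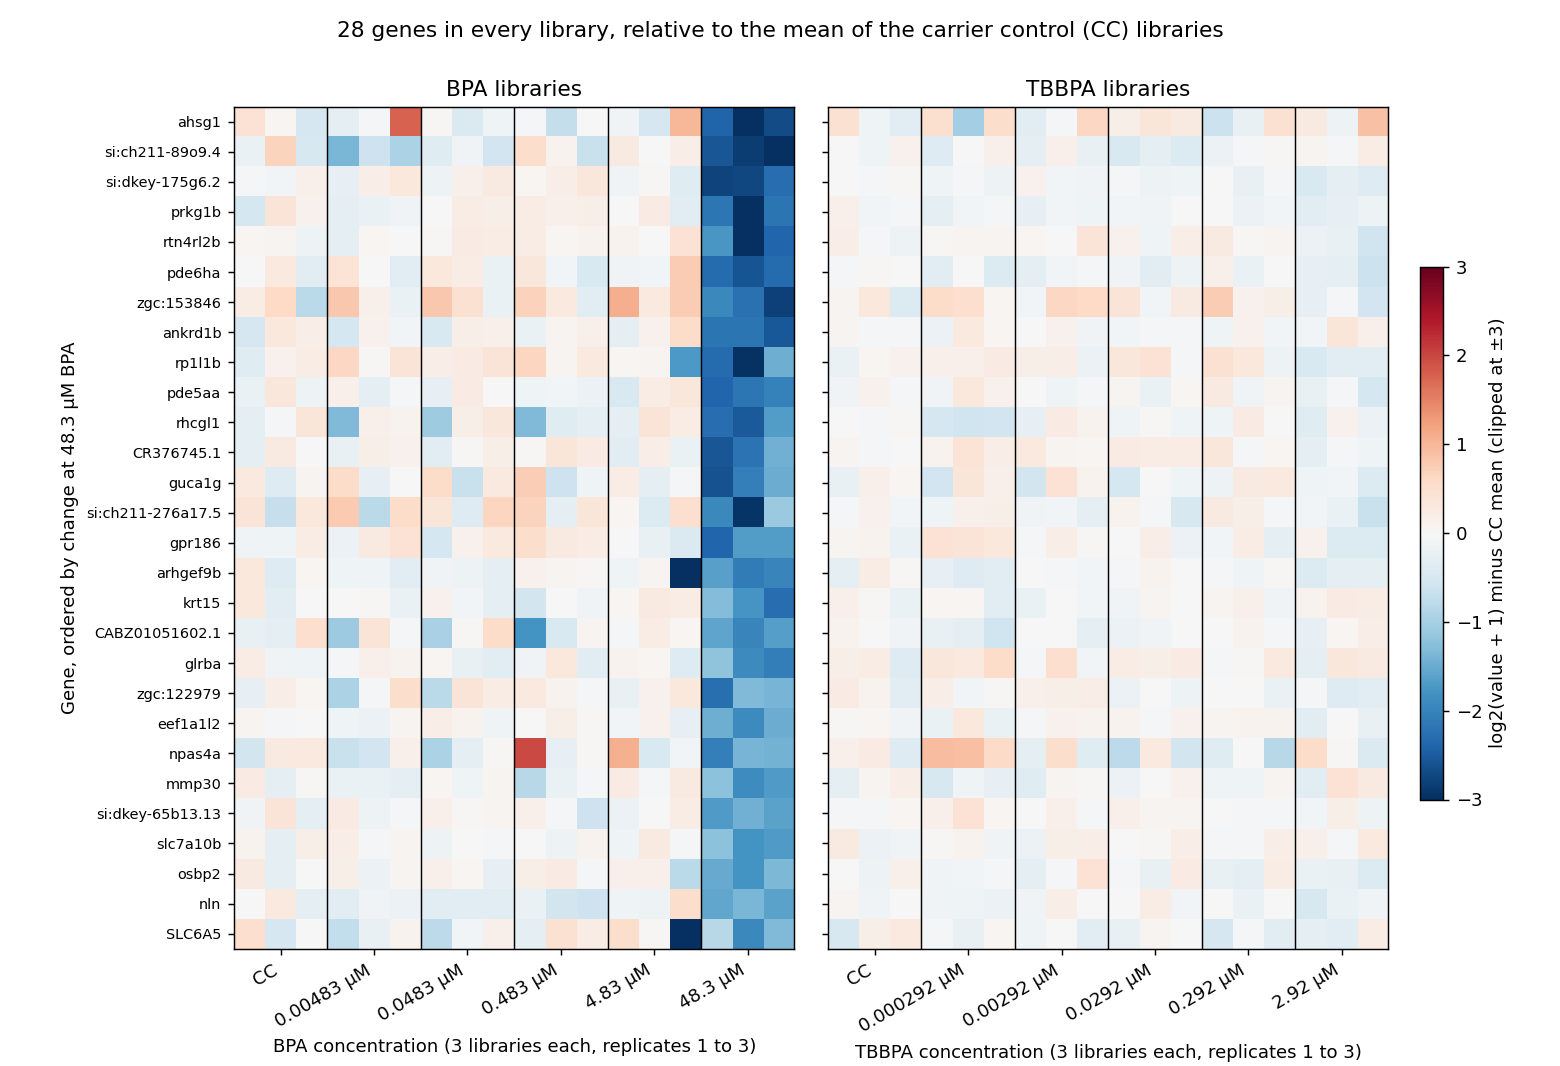
Each row is 1 of the 28 genes and each column 1 library; colour gives log2(value + 1) minus the mean of the 3 CC libraries of the same chemical, clipped at ±3. The 48.3 µM BPA columns are blue in every row, while the TBBPA columns stay pale; 4.83 µM BPA replicate 3 is blue for SLC6A5, arhgef9b and rp1l1b.

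The name of the set, lowered by BPA only, holds as a threshold and not as an absence of change in TBBPA. At 2.92 µM TBBPA, 19 of the 28 genes had a mean below 0, with a range from -0.40 (pde6ha) to 0.33 (ahsg1) and a median of -0.19 on the log2 scale. In 13 of the 28, the TBBPA library was the lower one in all 3 pairs, and in 1 (si:ch211-89o9.4) it was the higher one in all 3. For comparison, among the 10564 genes with a BPA CC mean of at least 50 that lay within the same TBBPA window, the median was -0.01 and 22.3% were lower in all 3 pairs. si:dkey-175g6.2 had 445, 495 and 462 normalized reads at 2.92 µM TBBPA, against 606, 596 and 620 in the TBBPA CC libraries. The groups also did not overlap for rp1l1b, prkg1b and rtn4rl2b, for example. They overlapped for others, such as zgc:153846, ankrd1b and ahsg1. pde6ha sits just inside the window at -0.40 (-0.396) and bdnf, a neurotrophin that met the condition on BPA, just outside it at -0.402. The 15 genes at -0.4 or below include relatives of the set such as rtn4rl2a, guca1c and ahsg2, at -0.50, -0.58 and -0.49.

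**Figure D2:**
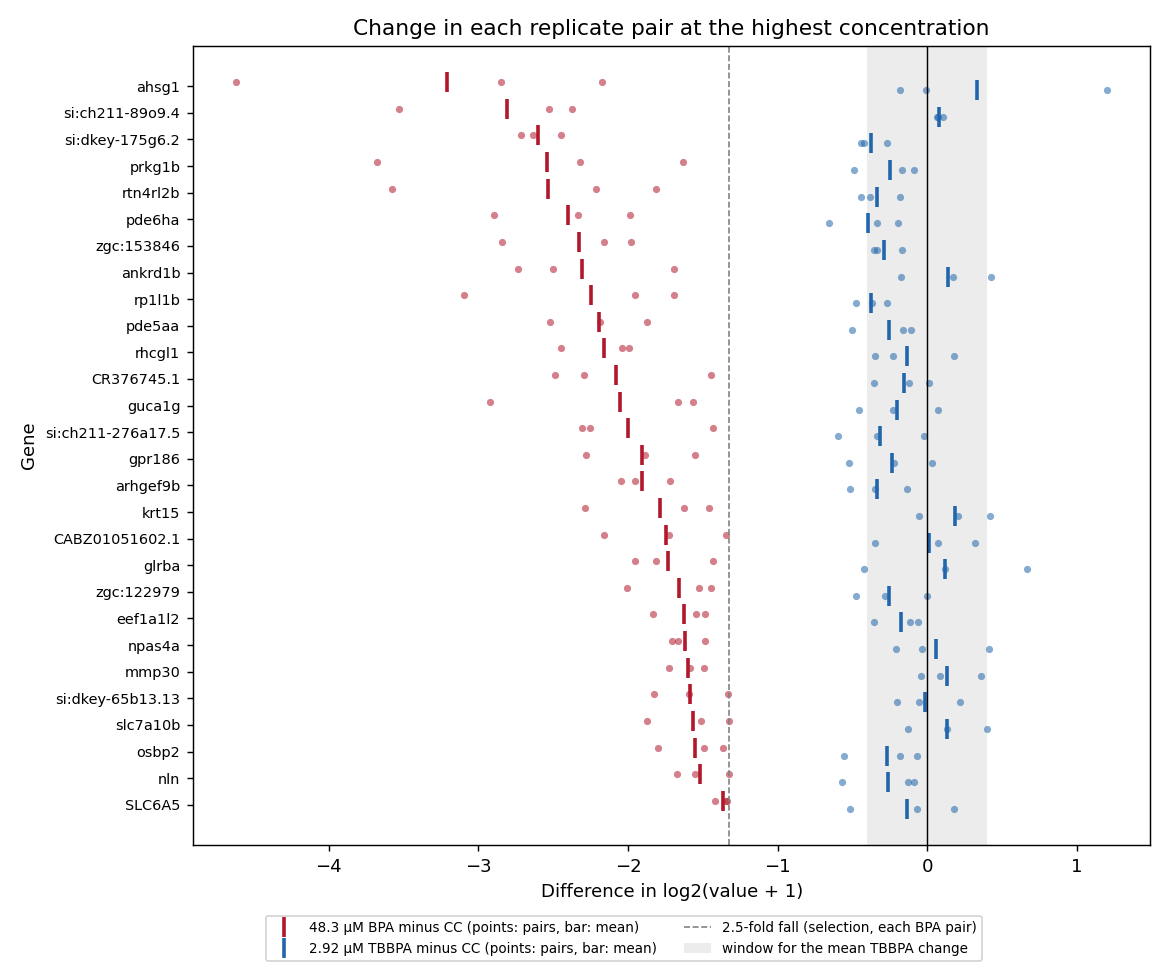
Horizontal axis: difference in log2(value + 1) between a library at the highest concentration and its same-numbered CC library; rows are the 28 genes. Red marks 48.3 µM BPA and blue 2.92 µM TBBPA (points, the 3 pairs; bars, their mean), the dashed line is the 2.5-fold fall asked of each BPA pair and the grey band the window for the mean TBBPA change. No red point crosses the dashed line, and the blue means run from -0.40 to 0.33.

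On the fold condition, the genes just inside were slc7a10b, nln and si:dkey-65b13.13, whose smallest falls over the 3 pairs were -1.32, -1.33 and -1.33. Just outside were pfkmb, camk2a and fam102ba, at -1.32, -1.31 and -1.29 in their weakest pair, and pfkmb missed the threshold of -1.32 by less than this rounding.

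The set holds 3 photoreceptor genes. pde6ha encodes the inhibitory gamma subunit of the cone phosphodiesterase. It had 3049, 2519.9 and 3091 normalized reads in the 48.3 µM BPA libraries, against 15364, 18712 and 12225 in the CC libraries. All 3 BPA libraries were below all 3 CC libraries, and its lowest library at the 4 lower concentrations, 11055, was also above them. The mean log2 difference was -2.40, with pairs from -2.89 to -1.98. At 2.92 µM TBBPA, pde6ha had 10763, 10363 and 8154 normalized reads, against 12327, 13092 and 12839.5 in the TBBPA CC libraries, so the groups did not overlap there either, at a mean difference of -0.40. Related genes outside the set were chosen by family name once the set was known. A second gene annotated PDE6H averaged 62.0 ± 19.9 at 48.3 µM BPA and 52.9 ± 16.9 in CC (log2 difference 0.22, SE 0.28, limma adjusted p = 0.63).

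guca1g encodes a guanylate cyclase activating protein, the calcium sensor that restores cGMP after light. It had 15.5, 23.5 and 35.1 normalized reads in the 48.3 µM BPA libraries, against 123, 76.9 and 106 in the CC libraries. The groups did not overlap, and replicate 1 held both the lowest BPA value and the highest CC value, which gave pairs from -2.92 to -1.57. Its relatives guca1c, guca1d and guca1b also fell, at log2 differences of -1.82, -1.64 and -1.63 (limma adjusted p = 4.9e-05, 0.0129 and 0.00217). guca1a, another of the family, averaged 42.3 ± 17.3 at 48.3 µM BPA and 30.9 ± 2.61 in CC (log2 difference 0.35, SE 0.26, limma adjusted p = 0.387).

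rp1l1b is related to mammalian RP1L1, a microtubule protein of the photoreceptor outer segment. It had 92.2, 58.2 and 166 normalized reads in the 48.3 µM BPA libraries, against 359.8, 504 and 538 in the CC libraries. No BPA library reached the CC range, and the mean log2 difference was -2.25. Its paralog rp1l1a fell too, with a log2 difference of -0.78 (SE 0.15, limma adjusted p = 0.00253), and the paralogs were not tested against each other.

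The visual genes around these members were mostly lower at 48.3 µM BPA as well. Calls in this comparison used limma at an adjusted p under 0.05 together with a 1.5-fold difference or more, which called 6.93% of 17248 genes lower and 7.07% higher, with a median log2 difference of -0.02 over all genes. Without 4.83 µM BPA replicate 3, 2011 of 17273 genes were called lower and 1551 higher, instead of 1195 and 1219, and with 1 replicate left out of all groups 558 to 1379 were called lower and 573 to 1023 higher. Of the other genes in a list of phototransduction genes, 37 of 48 fell, at a median of -1.22. Of those in a list of photoreceptor structure and retinoid cycle genes, 13 of 29 fell, at a median of -0.17. At 2.92 µM TBBPA the same rule called 0.201% of 18400 genes lower and 0.658% higher, at a median of -0.0056. Of the other phototransduction genes it called 1 lower of 49 (guca1d, at a log2 difference of -0.96), at a median of -0.17. Of those in the photoreceptor structure list it called 0 of 28, at a median of -0.16. With members included, 43 of 51 and 26 of 29 were below 0. Summed levels at 2.92 µM TBBPA and in its CC did not overlap, from 109409 to 124388 against 124618 to 140524 for phototransduction. For photoreceptor structure they ran from 11341 to 12589 against 13534 to 14646. Over all genes the TBBPA calls were 37 lower and 121 higher, against 15 and 54 without the replicate block, and 8 to 24 lower and 11 to 90 higher with 1 replicate left out of all groups. The lists were drawn up with earlier results of these data known. Gene names came partly from the study's tables of changed genes, so changed genes may have matched the lists more readily.

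Markers of other retinal cells were counted too, in RNA of whole larvae, so their sums are not limited to the retina. The Mueller glia list shares glula, gfap, slc1a2b and slc1a3b with the astroglia list used further on. The summed level of the phototransduction list ran from 35300.3 to 52387 at 48.3 µM BPA and from 92031 to 139875 in CC. This sum includes the members pde6ha and guca1g, whose falls the selection asked for. The member pde6ha alone held 2519.9 to 3091 of it at 48.3 µM BPA and 12225 to 18712 in CC. Markers of bipolar cells were called lower in 1 and higher in 1 of 8 (summed level from 2058 to 3044 at 48.3 µM BPA and from 2985 to 3160.2 in CC), those of retinal ganglion and amacrine cells lower in 3 of 7 (from 2123 to 2805 at 48.3 µM BPA and from 3386 to 3975 in CC), and those of Mueller glia lower in 2 and higher in 1 of 6 (from 10686 to 11910.2 at 48.3 µM BPA and from 12721 to 13405 in CC). No gene of these 3 marker lists was at 0 in all 48.3 µM BPA libraries. In the phototransduction list 2 genes were, a count made over all matched genes, tested or not. Their part in the photoreceptor values was not tested.

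A further 2 genes are in the list of cGMP signalling outside the eye. Whole-larva RNA does not give the site of their expression. prkg1b encodes a cGMP-dependent protein kinase of the type that relaxes smooth muscle in mammals. It had 49.8, 22.3 and 48.6 normalized reads in the 48.3 µM BPA libraries, against 156, 296 and 247 in the CC libraries. The highest BPA value was 49.8 and the lowest value of the 12 libraries of lower concentrations 181. The mean log2 difference was -2.54. Its paralog prkg1a averaged 21.1 ± 10.1 at 48.3 µM BPA and 12.1 ± 4.29 in CC (log2 difference 0.72, SE 0.55, limma adjusted p = 0.409).

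pde5aa encodes a cGMP-specific phosphodiesterase, related to the enzyme that sildenafil inhibits in people. It had 57.8, 66.9 and 74.8 normalized reads in the 48.3 µM BPA libraries, against 266, 389 and 277 in the CC libraries. BPA and CC values were apart, and the mean log2 difference was -2.19. The level of pde5aa in the 12 libraries of lower concentrations ran from 224 to 389.7 (median 293). In the list of cGMP genes outside the eye, 2 of 12 of the other tested genes fell, at a median of -0.23. The 13 other genes tested with TBBPA had a median of -0.14 at 2.92 µM. A second gene annotated PDE5A was too low to be tested, at 2.54 ± 2.21 at 48.3 µM BPA and 5.55 ± 1.04 in CC.

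Of the neuronal members, 4 concern glycine. SLC6A5 is the name of the transporter that returns glycine to the nerve terminal. It had 40.6, 18.6 and 28.8 normalized reads in the 48.3 µM BPA libraries, against 104, 51.2 and 74.8 in the CC libraries, with a mean log2 difference of -1.37, the smallest of the set. glrba, the beta subunit of the glycine receptor, had 28.6, 17.3 and 15.3 normalized reads in the 48.3 µM BPA libraries, against 79.1, 63.4 and 62.3 in the CC libraries. The groups did not overlap for either gene. arhgef9b is related to collybistin, which helps gather glycine and GABA receptors at the synapse, and had 51.5, 37.1 and 40.5 normalized reads in the 48.3 µM BPA libraries, against 203, 124 and 171 in the CC libraries. slc7a10b belongs to the family of a transporter of small neutral amino acids, glycine included, and had 60.7, 40.9 and 43.2 normalized reads in the 48.3 µM BPA libraries, against 153, 118 and 161 in the CC libraries. In these also, all 3 BPA libraries were below all 3 CC libraries.

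Glycine-related genes outside the set are given beside them. arhgef9a, the paralog of arhgef9b, averaged 333 ± 44.0 at 48.3 µM BPA and 711 ± 92.9 in CC (log2 difference -1.09, SE 0.15, limma adjusted p = 0.00019), and SLC32A1, which loads glycine and GABA into vesicles, had a log2 difference of -0.76 (SE 0.14, limma adjusted p = 0.00238). A second gene annotated GLRB averaged 178 ± 41.1 at 48.3 µM BPA and 291 ± 43.4 in CC (log2 difference -0.72, SE 0.19, limma adjusted p = 0.0154). SLC7A10, a relative of slc7a10b, averaged 76.3 ± 14.7 at 48.3 µM BPA and 123 ± 11.8 in CC (log2 difference -0.69, SE 0.19, limma adjusted p = 0.0184). SLC6A9, the glial glycine transporter, had a log2 difference of -0.40 (SE 0.11), short of 1.5-fold. Of 12 such genes other than the 4 members, 7 fell, at a median of -0.61. This list was drawn up after the members were seen, so its count is a description. The median of the 12 was -0.11 at 2.92 µM TBBPA.

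rtn4rl2b belongs to the Nogo receptor family, which in mammals restrains axon growth. It had 52.1, 14.9 and 33.3 normalized reads in the 48.3 µM BPA libraries, against 185, 188 and 158 in the CC libraries. The groups did not overlap, at a mean log2 difference of -2.53. Its paralog rtn4rl2a averaged 33.9 ± 16.1 at 48.3 µM BPA and 166 ± 22.1 in CC (log2 difference -2.36, SE 0.23, limma adjusted p = 1.3e-05); it was outside the set only through its TBBPA change of -0.50, against -0.33 for rtn4rl2b.

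npas4a encodes a transcription factor that neurons switch on when they are active. It had 63.5, 100.3 and 98.2 normalized reads in the 48.3 µM BPA libraries, against 179, 319.7 and 323 in the CC libraries. The groups did not overlap, at a mean log2 difference of -1.62, but npas4a varied widely at the lower concentrations, from 136 to 1048 (median 238). A second gene annotated NPAS4 averaged 7.03 ± 5.21 at 48.3 µM BPA and 22.6 ± 12.3 in CC (log2 difference -1.64, SE 0.43, limma adjusted p = 0.0155). gpr186, named gpr3 in the reference and related to a receptor that keeps cyclic AMP raised in mammalian neurons, had 19.5, 32.2 and 32.4 normalized reads in the 48.3 µM BPA libraries, against 98.4, 96.4 and 123 in the CC libraries. Its groups did not overlap either, at -1.91.

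In the list of synapse and ion channel genes, 27 of 47 of the other tested genes fell at 48.3 µM BPA, at a median of -1.28. In that of activity-regulated genes, 8 of 21 fell, at a median of -0.78. The list of neuropeptide and secretory granule genes holds no member, and 24 of 34 of it fell, at a median of -1.16. Without 4.83 µM BPA replicate 3, the counts with members included were 46 of 50 instead of 30 of 50 for the synapse genes and 13 lower and 2 higher instead of 9 lower for the activity-regulated genes. General neuron markers moved in the same direction, 14 of 21 called lower, with summed levels from 26655 to 36280.1 at 48.3 µM BPA and from 45917 to 51045 in CC and no marker at 0 in all 48.3 µM BPA libraries. Glial markers did too, those of astroglia in 2 of 4 (summed levels from 4652 to 5062 at 48.3 µM BPA and from 9018 to 9982 in CC) and those of oligodendrocytes in 3 of 8 (from 1941 to 2230.1 at 48.3 µM BPA and from 2993 to 3827 in CC). The part of these markers in the members' values was not tested. At 2.92 µM TBBPA, 1 of the 47 other genes of the synapse list was called lower (KCNJ6, at a log2 difference of -0.61). The median of the 47 was -0.24, against -0.0056 over all genes. With members included, 46 of 50 were below 0. Summed levels of that list ran from 17223 to 18023 at 2.92 µM TBBPA and from 19898 to 20468 in its CC. These ranges do not overlap. The median of the other activity-regulated genes was -0.17.

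ankrd1b, related to a titin-binding protein that responds to stretch in mammalian heart and muscle, had 274, 275 and 215 normalized reads in the 48.3 µM BPA libraries, against 887, 1563 and 1437 in the CC libraries. The groups did not overlap, at a mean log2 difference of -2.31, and the 12 libraries of lower concentrations ran from 870.4 to 1830.4 (median 1354). A second gene annotated ANKRD1 averaged 34.0 ± 6.52 at 48.3 µM BPA and 20.6 ± 3.90 in CC (log2 difference 0.70, SE 0.30, limma adjusted p = 0.123). In the list of skeletal muscle contraction and energy genes, 20 of 44 of the other tested genes fell, at a median of -0.51. Skeletal muscle markers were called lower in 2 of 11, with summed levels from 410799 to 468928 at 48.3 µM BPA and from 377367 to 654721 in CC, ranges that overlap. Cardiac muscle markers were called lower in 1 and higher in 1 of 5, at a median of 0.43. Their summed levels ran from 1219 to 1916 at 48.3 µM BPA and from 1042 to 1480 in CC, and also overlap.

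ahsg1 encodes alpha-2-HS-glycoprotein (fetuin-A), a plasma protein that the liver secretes. It had 14.3, 2.48 and 11.7 normalized reads in the 48.3 µM BPA libraries, against 109, 84.2 and 56.4 in the CC libraries, and the lowest of these rests on 2 reads. The mean log2 difference of -3.21 was the largest of the 28, with pairs from -4.61 to -2.18. At 2.92 µM TBBPA, ahsg1 had 128, 96.0 and 197 normalized reads, against 146, 96.8 and 85.3 in the TBBPA CC libraries, and the groups overlapped. The paralog ahsg2 averaged 3.47 ± 1.01 at 48.3 µM BPA and 69.4 ± 20.2 in CC (log2 difference -3.96, SE 0.36, limma adjusted p = 7.5e-06). In the list of secreted liver proteins and bile acid synthesis, 16 of 43 of the other tested genes fell and 2 rose (apoeb, an apolipoprotein, by 0.92, and fbp1a, of gluconeogenesis, by 0.60), at a median of -0.88. Hepatocyte markers were called lower in 1 of 16, with summed levels from 10135 to 45648 at 48.3 µM BPA and from 24876 to 29645 in CC, so the marker level was not lower in every library. In TBBPA, 2 liver genes rose at 2.92 µM (tfa and apoc1, by 1.27 and 0.95). Without 0.000292 µM TBBPA replicate 2, 8 of the list rose and 1 fell, and hepatocyte markers rose in 5 instead of 1. In BPA, leaving out 4.83 µM replicate 3 gave 4 liver genes that rose instead of 2.

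Of the genes of skin and its surface, rhcgl1 encodes an Rh glycoprotein, a family that carries ammonia across the gill and skin of fish. It had 163, 139 and 247 normalized reads in the 48.3 µM BPA libraries, against 652, 761 and 1018 in the CC libraries. All BPA libraries lay below the CC range, at a mean log2 difference of -2.16. krt15, a type I keratin, had 265, 193 and 133 normalized reads in the 48.3 µM BPA libraries, against 819, 532 and 653 in the CC libraries. mmp30, a matrix metalloproteinase, had 315, 202 and 229.7 normalized reads in the 48.3 µM BPA libraries, against 887, 608 and 762 in the CC libraries. For both, the highest BPA library lay below the lowest CC library, at mean differences of -1.79 and -1.60. In both, the mean at 2.92 µM TBBPA was on the higher side of its CC, at 0.19 and 0.13.

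The genes annotated RHCG outside the set averaged 172 ± 24.2 at 48.3 µM BPA and 415 ± 108 in CC (log2 difference -1.24, SE 0.50, limma adjusted p = 0.101) and 147 ± 58.4 at 48.3 µM BPA and 189 ± 21.2 in CC (log2 difference -0.43, SE 0.26, limma adjusted p = 0.295). In the list of keratins and epidermal genes, 2 of 22 of the other tested genes fell and 2 rose (krt18a.1 by 0.69 and cldne by 0.99), at a median of -0.03, close to that of all genes. Epidermis markers were called lower in 1 and higher in 1 of 10, with summed levels from 71627 to 97215 at 48.3 µM BPA and from 52244 to 95782 in CC, ranges that overlap.

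Several strongly lowered genes carry no named function in the files. si:ch211-89o9.4 had 13.7, 11.1 and 9.91 normalized reads in the 48.3 µM BPA libraries, against 75.2, 139 and 61.8 in the CC libraries, a mean log2 difference of -2.81. si:dkey-175g6.2 had 70.4, 73.1 and 99.1 normalized reads in the 48.3 µM BPA libraries, against 468, 459 and 544 in the CC libraries, at -2.60. zgc:153846 had 17.2, 13.6 and 9.01 normalized reads in the 48.3 µM BPA libraries, against 80.1, 104 and 38.4 in the CC libraries, at -2.33. In these 3, no BPA library reached the lowest CC library, nor the lowest of the 12 libraries at lower concentrations.

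CR376745.1, named si:ch211-147k10.6 in the reference, averaged 117 ± 49.3 at 48.3 µM BPA and 477 ± 87.9 in CC (SD, n = 3 each), and si:ch211-276a17.5 averaged 71.4 ± 42.3 at 48.3 µM BPA and 268 ± 95.7 in CC. CABZ01051602.1, described as holding sushi, nidogen and EGF-like domains, averaged 54.9 ± 8.08 at 48.3 µM BPA and 191 ± 61.0 in CC. Its groups did not overlap, but 1 library at 0.483 µM BPA, at 52.4, was within the range of the 48.3 µM libraries. zgc:122979 averaged 112 ± 36.0 at 48.3 µM BPA and 345 ± 54.3 in CC, and si:dkey-65b13.13 averaged 81.0 ± 7.51 at 48.3 µM BPA and 249 ± 61.8 in CC.

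The last members to be described belong to none of the lists. osbp2, an oxysterol-binding protein, averaged 55.9 ± 8.48 at 48.3 µM BPA and 167 ± 32.7 in CC, and nln, a metallopeptidase that cleaves short peptides such as neurotensin, averaged 33.8 ± 2.98 at 48.3 µM BPA and 99.6 ± 20.2 in CC (SD, n = 3 each). A second gene annotated OSBP2 averaged 127 ± 12.2 at 48.3 µM BPA and 147 ± 10.6 in CC (log2 difference -0.21, SE 0.18, limma adjusted p = 0.47). eef1a1l2, of the translation elongation factor 1-alpha family, averaged 60.8 ± 9.74 at 48.3 µM BPA and 188 ± 9.32 in CC. Its relative EEF1A1 fell, averaging 674 ± 80.5 at 48.3 µM BPA and 1368 ± 128 in CC (log2 difference -1.02, SE 0.15, limma adjusted p = 0.00032), while eef1a1l1 averaged 80081 ± 7091 at 48.3 µM BPA and 71047 ± 8809.9 in CC (log2 difference 0.18, SE 0.22, limma adjusted p = 0.63). Copies of this family are alike in sequence, so reads of eef1a1l2 may not all have been counted for that gene, and its value is uncertain.

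**Figure D3:**
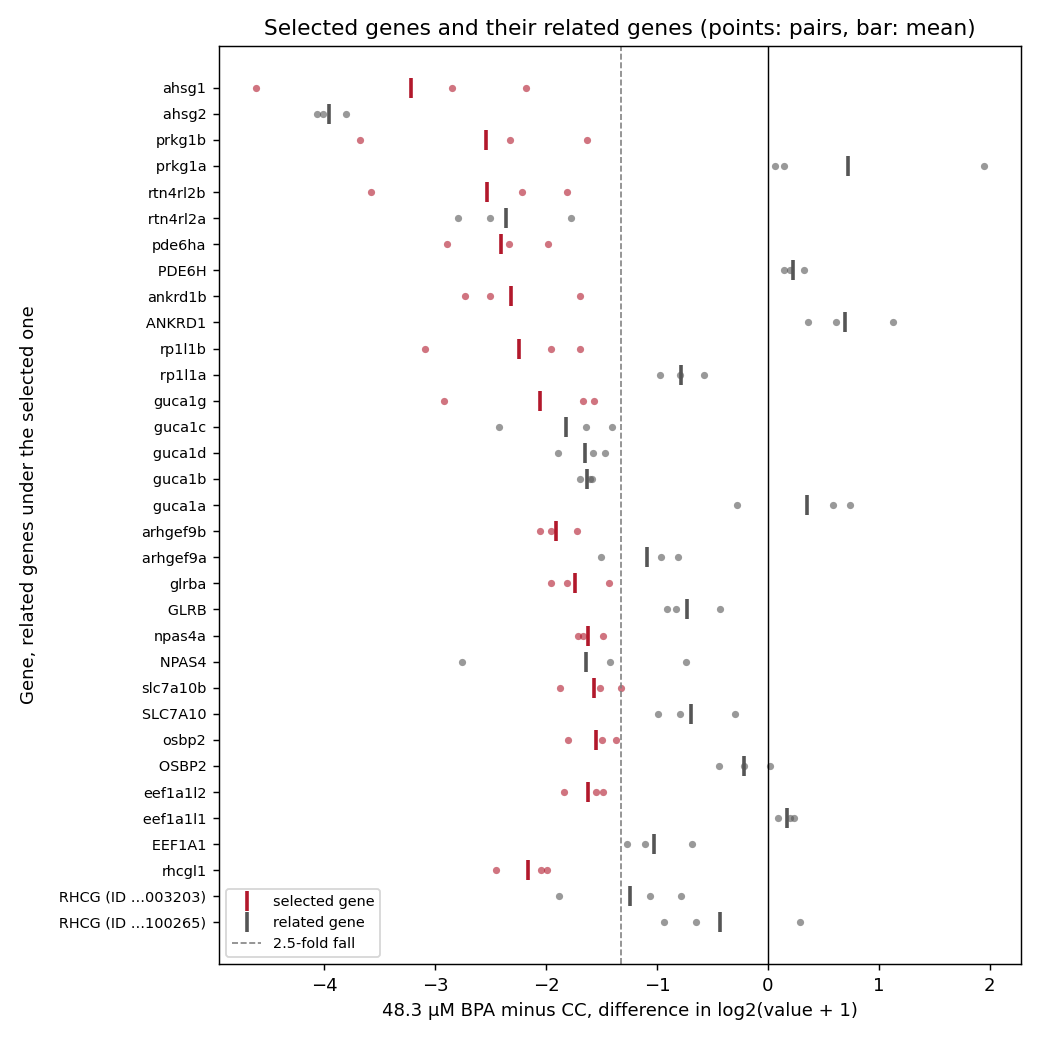
Horizontal axis: 48.3 µM BPA minus CC as the difference in log2(value + 1); points are the 3 pairs and bars their mean. Red rows are genes of the set and grey rows below each are genes of the same family with a mean of at least 10. Of the grey rows, ahsg2, rtn4rl2a, guca1c, guca1d and guca1b lie past the dashed 2.5-fold line in all 3 pairs. The means of prkg1a, PDE6H, ANKRD1, guca1a and eef1a1l1 are above 0.

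Leaving the glycine list aside, 13 of the 28 genes belong to 1 of the 11 lists and 15 to none of them. SLC6A5 and slc7a10b, of these 15, are in the glycine list. Of the 2 remaining lists, which hold no member, intestinal absorption and brush border genes fell in 17 of 33 tested, and glucocorticoid-inducible genes fell in 3 of 17 and rose in 3. Erythrocyte markers rose in 7 of 7 at 48.3 µM BPA, with summed levels from 2009.6 to 2789 at 48.3 µM BPA and from 431 to 816 in CC, and in 4 of 6 at 2.92 µM TBBPA. Their part in the values of the 28 genes was not tested.

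The lower concentrations, which the selection did not use, were compared among themselves. At 4.83 µM BPA against the 3 lower concentrations, 0 of the 28 genes passed, as did 0% of the 17248 genes tested (limma), and edgeR and DESeq2 on the recovered reads also called 0 genes. At an unadjusted p under 0.05 there were 2958 genes in limma (17.1%), 2032 in edgeR and 1875 in DESeq2, and 7 of the 28 in limma. The members' median log2 difference was 0.07, with 12 of the 28 below 0, against -0.01 over all genes.

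In that comparison the members' differences ran from -1.76 (SE 0.93) for SLC6A5 to 0.60 (SE 0.24) for si:ch211-89o9.4. Each of the 7 had a limma adjusted p of 0.29: rp1l1b, arhgef9b and si:dkey-175g6.2 were on the lower side, at -0.84 (SE 0.34), -1.11 (SE 0.48) and -0.27 (SE 0.12). The other 4 (rhcgl1, si:ch211-89o9.4, nln and mmp30) were on the higher side, from 0.34 (SE 0.16) for mmp30 to 0.60 (SE 0.24). Against CC, which this comparison did not use, rhcgl1 and si:ch211-89o9.4 differed at 4.83 µM by 0.11 and 0.16. si:ch211-89o9.4 was low at 0.00483 µM BPA, 1 of the groups compared with, at 44.4 ± 11.3 against 92.1 ± 41.3 in CC.

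The lowest of these values rest on 4.83 µM replicate 3. SLC6A5 had 106, 75.2 and 0 normalized reads in the 3 libraries of 4.83 µM BPA, arhgef9b 149, 174 and 12.5, and rp1l1b 483, 490.4 and 139, the last of each from replicate 3. In replicates 1 and 2, none of these genes was below the CC range. Without that library the differences were 0.50, 0.05 and -0.13, 716 genes had an unadjusted p under 0.05 instead of 2958, 2 of the 28 did, and 0 genes were called. The library was not low for the set as a whole. Its median log2 difference from the mean of replicates 1 and 2 was 0.02 over the 28 genes and 0.09 over the genes with a CC mean of at least 50, and 3 of the 28 were at least 2-fold lower there, against 13.5% of those genes.

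At 0.483 µM BPA against the 2 lowest concentrations, 0 of the 28 and 0% of 17248 genes were called by limma, and 0 by edgeR and DESeq2. At an unadjusted p under 0.05 there were 269 genes in limma (1.56%), 267 in edgeR and 161 in DESeq2, with 2 of the 28 in limma. These were npas4a, at a log2 difference of 0.98 (SE 0.45), and si:ch211-89o9.4, at 0.65 (SE 0.25), both on the higher side. npas4a at 0.483 µM BPA had 1048, 224 and 273 normalized reads, so 1 library held most of its level.

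At 0.292 µM TBBPA against the 3 lower concentrations, 0 of the 28 and 0% of 18400 genes were called by limma, and 0 by edgeR and DESeq2. At an unadjusted p under 0.05 there were 996 genes in limma (5.41%), 1062 in edgeR and 423 in DESeq2, with 5 of the 28 in limma. npas4a had the largest difference of these, -0.53 (SE 0.15), with a limma adjusted p of 0.84. Its values were 435, 565 and 312 at 0.292 µM and 1061, 1041 and 825 at 0.000292 µM TBBPA, the group in which npas4a was highest. The members' median was 0.03, against -0.0015 over all genes.

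A comparison added after seeing the data set 0.0292 µM TBBPA against the 2 lowest concentrations. limma called 0 of the 28 and 0% of 18400 genes, and edgeR and DESeq2 called 0. At an unadjusted p under 0.05 there were 1085 genes in limma (5.9%), 1155 in edgeR and 455 in DESeq2, with 5 of the 28 in limma. npas4a was again the member with the largest difference, -0.72 (SE 0.16, limma adjusted p = 0.587), and both comparisons include the 0.000292 µM libraries.

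**Figure D4:**
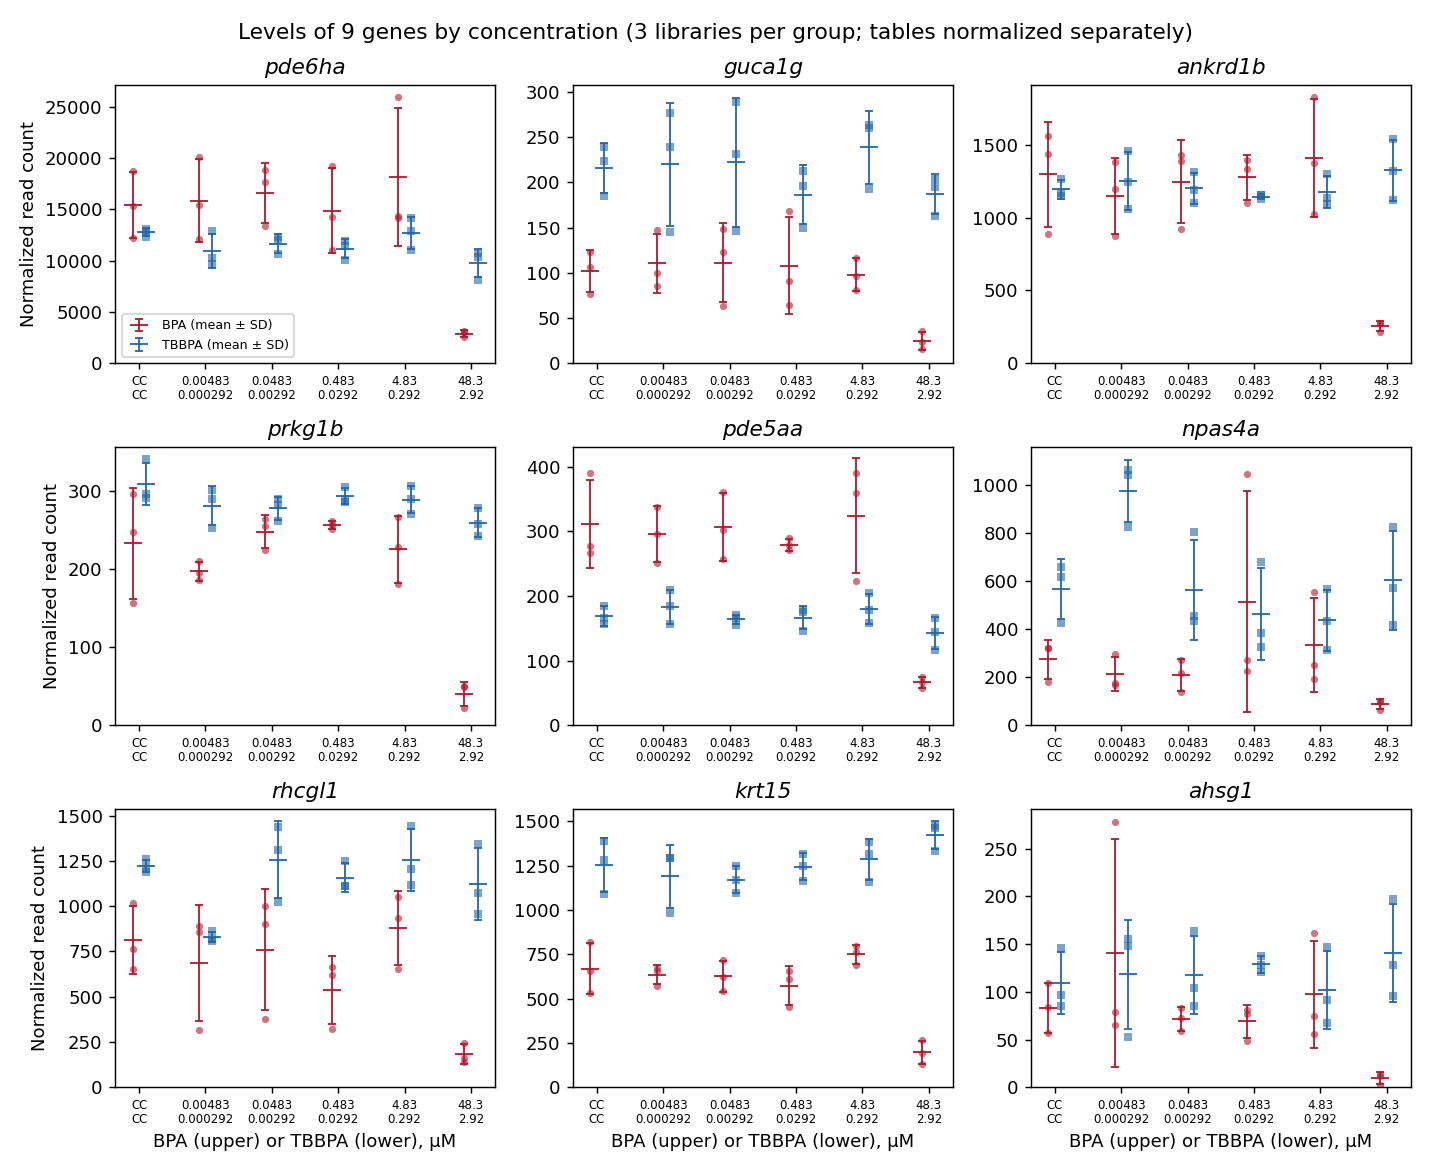
Normalized read counts (vertical axis, from 0) of 9 genes against concentration, from CC on the left to the highest on the right, with BPA in red circles and TBBPA in blue squares; points are libraries, bars the mean ± SD of 3. For all 9 genes the 48.3 µM BPA libraries are the lowest BPA libraries; npas4a is spread most at 0.483 µM BPA, where 1 library reached 1048.

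The genes did not vary as 1 block among the libraries of lower concentrations. Over the 378 pairs of members, the median Pearson r of log2(value + 1) was -0.01 across the 11 BPA libraries of the 4 lower concentrations other than 4.83 µM replicate 3, and 0.05 across the 12 TBBPA libraries of the 4 lower concentrations. A total of 3 pairs reached a positive r of 0.6 in both, and the share among pairs of all genes was not computed. rhcgl1 and CABZ01051602.1 had r of 0.94 in the BPA and 0.67 in the TBBPA libraries, rp1l1b and si:ch211-276a17.5 0.82 and 0.68, and pde6ha and zgc:153846 0.74 and 0.68. In the negative direction, SLC6A5 and pde6ha had r of -0.76 in the BPA and -0.86 in the TBBPA libraries. The points share the normalization of their table and the replicate numbers, and the values are a description.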

How the data were processed

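Whole-larva RNA was sequenced in 36 libraries, 18 for each chemical, with 3 libraries in each group. Per the labels and the study's methods, the libraries were stranded mRNA libraries, and cutadapt (trimming), STAR (alignment to GRCz11, counts per gene) and DESeq2 were used. The deposited tables, 1 for each chemical, hold a linear signal: read counts per gene after division by DESeq2 size factors. In each of the 36 columns, 100% of the low non-zero values came out as whole reads (tolerance 0.1) after division by the column's step. Larger values were rounded without this check. The recovered reads, 6056692 to 16520859 a library, served the count-based alternatives. Groups and replicate numbers came from the sample labels. By the study's methods, replicates came from different clutches and the study's model holds a replicate term, so the number was taken to mark a shared clutch. The deviations of same-numbered libraries had a median r of 0.1151 in BPA (lowest -0.389) and 0.166 in TBBPA (lowest -0.105). Of these, 26 and 36 of 45 pairs exceeded 0.1. Other pairs of libraries had medians of -0.05668 and -0.07898. Deviations were taken from the group mean, so the values for other pairs largely follow from the first and are no separate comparison.

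The 28 genes and all gene lists were chosen with earlier results of these data known. Of 474 symbols in 11 gene lists, 394 genes were matched, and of 219 in 16 marker lists, 160, by gene names from the study's supplementary tables and the reference. The supplementary tables are described as holding the genes that the study called changed, and other genes carry reference names, which can differ from the list symbols. Changed genes may therefore have matched more readily, and the effect on the shares called in each list was not tested. Values were transformed as log2(value + 1), and genes with a mean of at least 10 were fitted with limma 3.58.1 in R 4.3.3, adding a block for replicate number. Fold changes on this scale understate changes of low genes. A gene was called at a Benjamini-Hochberg adjusted p under 0.05 and at least 1.5-fold, over all genes tested. edgeR 4.0.16 (quasi-likelihood) and DESeq2 1.42.0 on the recovered reads, no block, a pseudocount of 10, no filter, the 12 lower-concentration libraries alone and fits without single libraries or replicates were alternatives. The fit was also run on simulated counts with the same dispersion for every gene, no replicate effect and no divergent library. These are simpler than the data, so that run does not show how the fit performs on them. The genes named were, by rule, the 10 members with the largest falls, the members of each list, the genes nearest the threshold and list genes called in the opposite direction. Family relatives and glycine genes were chosen after the set was seen. From the tables of the authors' own comparisons only gene names and descriptions were used, and sequences and coordinates were not analysed here.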

Additional observations from a re-analysis of the deposited data

How the results depend on the processing

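The number of genes in the set depends on how the fall is asked for. With a fall of at least 2-fold in each pair it was 102, and with the fall asked of the mean over replicates it was 136, both of which hold all 28. With a pseudocount of 10 it was 23 (21 of the 28), with values scaled to library totals 24 (all among the 28), and with 1 replicate left out, which leaves 2 pairs, 59 to 65 (23 to 28 of the 28). In the comparisons among lower concentrations, 0 members were called under every alternative run. Across all genes the count was 0 as well, with 3 exceptions: 1 gene at 4.83 µM BPA with no filter on low values, and, at 0.0292 µM TBBPA, 1 gene in the 12 lower-concentration libraries alone and 0 to 2 with 1 replicate left out. Without the replicate block, 0 genes were called in each of these comparisons, and the members' medians were 0.072 at 4.83 µM BPA and 0.0252 at 0.292 µM TBBPA, as with it. At the highest concentrations the block did change the counts over all genes, to 15 lower and 54 higher without it at 2.92 µM TBBPA (37 and 121 with it) and to 1148 and 1159 at 48.3 µM BPA (1195 and 1219 with it). With 1 replicate left out, the median ran from 0.0288 to 0.0481 at 4.83 µM BPA and from -0.0302 to 0.069 at 0.292 µM TBBPA. The cause was not tested. Leaving out 4.83 µM BPA replicate 3, an alternative for these counts chosen after seeing the data, moved the genes called lower at 48.3 µM BPA to 2011 over all genes, against 1195 with it, and to 46 in the synapse list, against 30. The lowest-count values, such as 2 reads for ahsg1, limit the precision of the largest falls.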
